A study of Daucus carota with 6 samples.

Results

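The light-harvesting antenna proteins of the carrot (Daucus carota) fleshy root were described from the rows of the deposited expression table that carry the KEGG pathway label ko00196, photosynthesis antenna proteins. That label was held by 33 of 35073 genes. KEGG sorted them into 11 types, of which 4 were LHCA types with 8 genes and 7 were LHCB types with 25 genes. Of the 33 genes, 31 had at least 1 FPKM in at least 3 of the 6 samples and were tested. FPKM counts mapped fragments per length of transcript, scaled to the fragments of the sample, so levels of different genes can be set side by side. Each tested gene carried a chlorophyll a-b binding domain in the deposited annotation. The untested pair, DCAR_005181 and DCAR_015093, were labelled LHCB5 without that domain. DCAR_015093 was listed at 0 in each sample, and DCAR_005181 was listed at 0 except for 1.39 FPKM in WT replicate 2 and 1.58 FPKM in BC replicate 3.

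RNA-seq had been made from fleshy roots of non-transgenic carrots (WT, 3 samples) and of betanin-transgenic carrots (BC, 3 samples). Betanin is the red-violet pigment of beet, and BC carrots were stably transformed with CYP76AD1S, cDOPA5GTS and DODA1S, the genes for its synthesis. The sources used here do not give the age of the plants, the light that the roots received, the promoters of the transgenes or the number of independent lines. Whether samples are separate plants, pools or repeats is not in the labels either. The p-values therefore measure the spread between 3 samples a group, which may be technical.

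Antenna proteins sit in the thylakoid membranes of chloroplasts, hold chlorophyll a, chlorophyll b and carotenoids, and pass the light energy they absorb to the reaction centres. LHCA proteins bind to photosystem I. LHCB1, LHCB2 and LHCB3 form the trimers of the major complex of photosystem II, LHCII, while LHCB4 (CP29), LHCB5 (CP26) and LHCB6 (CP24) are monomers that join the trimers to the core. In plants these genes are nuclear, and their transcripts are typically abundant in green, lit tissue and scarce in dark-grown storage roots.

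Antenna transcripts were higher in BC roots in nearly every type. Of the 31 tested genes, 25 were higher in BC, 1 was lower and 5 were not called, by limma with Benjamini-Hochberg adjustment over all 21033 tested genes at an adjusted p below 0.05. Over all tested genes 22.8% were called higher and 23.5% lower, together 46.4%. The lower calls numbered 4943 genes with all samples and 3193 without WT replicate 3, and the higher calls 4806 and 3446. A call with at least a 2-fold rise was made for 24 antenna genes, against 12.7% of all tested genes. BC and WT samples did not overlap for 25 higher genes and 1 lower gene, against 27.1% of all tested genes higher and 30.0% lower. The median log2 fold change, BC minus WT on the log2(FPKM + 1) scale, was 1.79 over the antenna genes, with a range from -2.13 to 4.26, and -0.02 over all tested genes. Among the 31, 3 genes had passed the FPKM minimum only through BC (DCAR_015311, novel3215 and DCAR_005105) and 1 only through WT (DCAR_003944), so these had to differ. Of the other 27 genes, 22 were higher, none was lower and 5 were not called. By limma none of these 5 was lower at an unadjusted p below 0.05 either. In the whole table, 19440 tested genes had not passed the minimum through 1 group alone. Of those, 3751 were higher and 4436 lower.

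Summed over the 33 genes, antenna transcripts reached 3772, 2188 and 2740.1 FPKM in the WT samples and 12803, 11760 and 12106 FPKM in the BC samples. The groups did not overlap, and the mean rose 4.21-fold, from 2900 ± 804 to 12223 ± 531 FPKM (SD, n = 3). As a share of all FPKM in a sample, antenna genes took 0.318%, 0.192% and 0.238% in WT and 0.994%, 0.927% and 1.02% in BC. These sums over members were not tested. A mean of at least 100 FPKM was reached by 9 antenna genes in WT and by 19 in BC, so antenna transcripts were already present in the non-transgenic roots. In bulk samples, more cells of a type and more RNA per cell cannot be told apart.

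**Figure D1:**
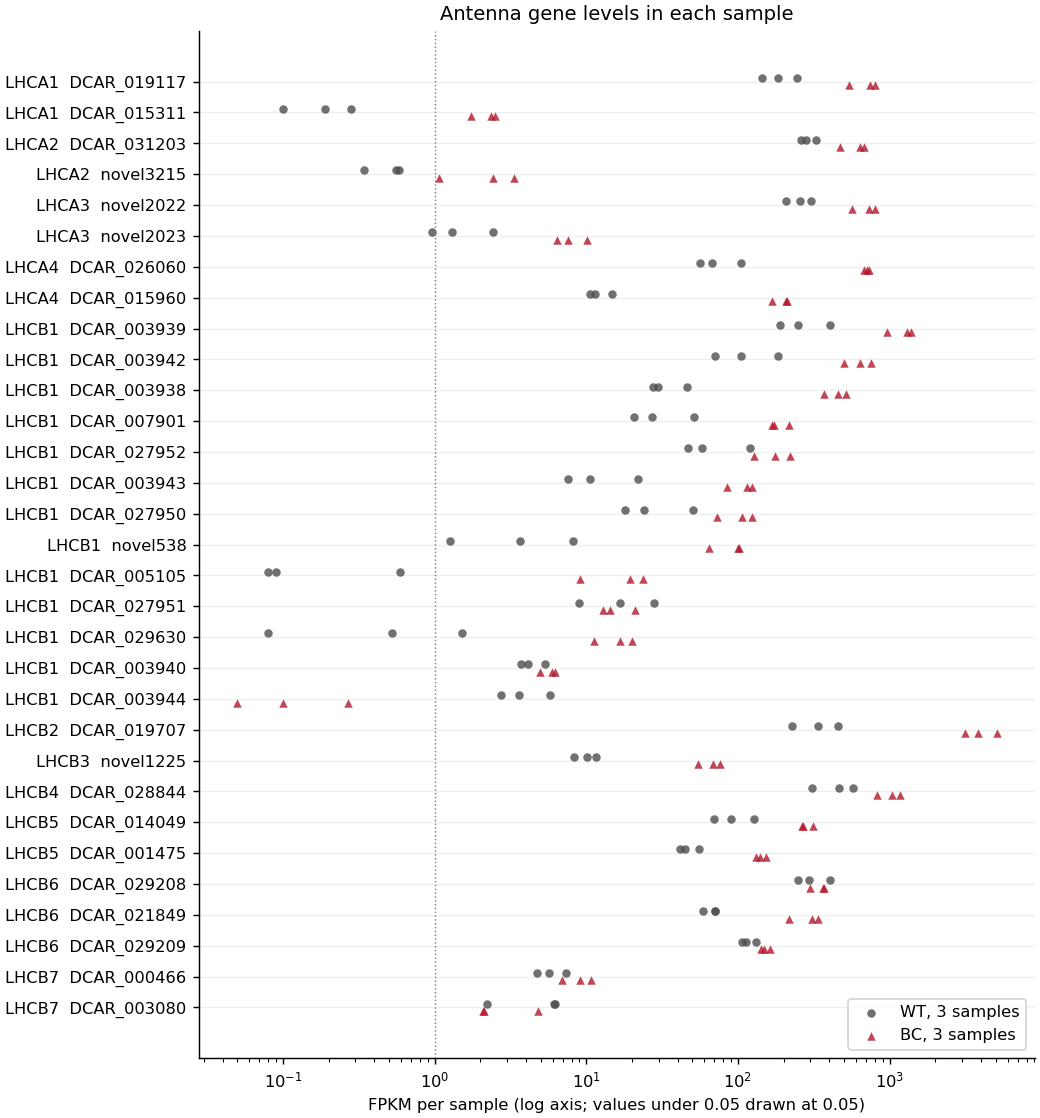
FPKM of each of the 31 tested antenna genes in the 3 WT samples (circles) and the 3 BC samples (triangles), on a log axis, with the dotted line at the minimum of 1 FPKM. The BC samples lie above all WT samples for 25 genes and below them for DCAR_003944.

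In the photosystem I antenna all 8 LHCA genes were called higher, each at least 2-fold on the fitted scale, with a median log2 fold change of 1.64. Among the 8, DCAR_015311 and novel3215 had passed the FPKM minimum only through BC and so had to differ. LHCA4 had the biggest change of the LHCA types. DCAR_026060, chlorophyll a-b binding protein 4, had 104, 56.4 and 67.5 FPKM in WT and 733, 709 and 675 FPKM in BC. The other LHCA4 gene, DCAR_015960, had 14.7, 10.5 and 11.4 FPKM in WT and 208, 212 and 169 FPKM in BC. Neither gene showed overlap between groups, and the 3 BC values of DCAR_026060 lay close together. The log2 fold change was 3.24 (SE 0.22, adjusted p = 6.58e-05 by limma) for DCAR_026060 and 3.91 (SE 0.15, adjusted p = 6.08e-06) for DCAR_015960.

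In plants LHCA4 pairs with LHCA1, and LHCA2 with LHCA3. The LHCA1 gene DCAR_019117, chlorophyll a-b binding protein 6A-like, had 245, 144 and 183 FPKM in WT and 748, 796 and 537 FPKM in BC, a 3.64-fold rise of the mean (log2 fold change 1.87, SE 0.23, adjusted p = 0.00100 by limma). LHCA3 was led by novel2022, chlorophyll a-b binding protein 8, with 303, 207.5 and 256 FPKM in WT and 728, 802 and 565 FPKM in BC (log2 fold change 1.45, SE 0.19, adjusted p = 0.0012). DCAR_031203, chlorophyll a-b binding protein 7 and the main LHCA2 gene, had the smallest change, from 329, 263 and 279 FPKM to 639.8, 682 and 472 FPKM (log2 fold change 1.03, SE 0.17, adjusted p = 0.00317). Each of these types was thus led by 1 abundant gene with separate groups. Differences between types were not tested.

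The second gene of LHCA1, LHCA2 and LHCA3 was near the detection minimum in WT. DCAR_015311 (LHCA1) had 0.28, 0.1 and 0.19 FPKM in WT and 2.51, 1.73 and 2.36 FPKM in BC. The gene novel3215, typed LHCA2 by KEGG, is described as photosystem I chlorophyll a/b-binding protein 6. It had 0.34, 0.58 and 0.56 FPKM in WT and 2.44, 3.36 and 1.07 FPKM in BC. In LHCA3, novel2023 had 2.43, 0.96 and 1.31 FPKM in WT and 10.0, 7.58 and 6.4 FPKM in BC. All BC values lay above the WT values, and all 3 genes were called higher by limma. For DCAR_015311 and novel3215, which had passed the FPKM minimum only through BC, the separation was set by that minimum. The call of novel3215 (log2 fold change 1.08, SE 0.29, adjusted p = 0.0217 by limma) was lost when samples were quantile normalized (adjusted p = 0.166), and when WT replicate 1 (0.0674), WT replicate 3 (0.0595) or BC replicate 1 (0.0764) was left out. In the RefSeq annotation of the carrot assembly DH1 v3.0, the genes matched to novel2022 and novel2023 stand near each other, with 2 genes between them.

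LHCB2 supplied the most abundant antenna transcript of BC roots. Its single gene, DCAR_019707 (chlorophyll a-b binding protein 37), had 455, 228 and 336 FPKM in WT and 3809.6, 3151 and 5081 FPKM in BC. The lowest BC sample was far above the highest WT sample, and the log2 fold change was 3.59 (SE 0.29, adjusted p = 0.000163 by limma). In the whole table DCAR_019707 ranked 390, 820 and 538 by FPKM in the WT samples and 18, 24 and 6 in the BC samples. It was the highest antenna gene in each BC sample, whereas the LHCB4 gene DCAR_028844 was the highest in each WT sample. LHCB2 is, in Arabidopsis, the LHCII subunit whose phosphorylation moves trimers between the photosystems.

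LHCB1, the main subunit of LHCII trimers, was the largest type with 13 genes, of which 10 were higher, 1 was lower and 2 were not called. DCAR_005105, called higher, and DCAR_003944, called lower, had passed the FPKM minimum through 1 group alone and so had to differ. The type reached 927, 403 and 528 FPKM in WT and 3507, 3026 and 2490.0 FPKM in BC as a sum, without overlap. DCAR_003939, its most abundant gene, had 406, 191 and 247 FPKM in WT and 1384, 1299 and 956 FPKM in BC (log2 fold change 2.16, SE 0.29, adjusted p = 0.00144 by limma). DCAR_003942 followed with 184, 70.7 and 105 FPKM in WT and 756, 642 and 504 FPKM in BC (log2 fold change 2.48, SE 0.34, adjusted p = 0.00159). In both genes WT replicate 1 was the highest of the WT samples and still below each BC sample.

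Several LHCB1 genes that were low in WT had larger ratios. The gene novel538 had 8.2, 3.67 and 1.27 FPKM in WT and 101, 100.4 and 64.9 FPKM in BC, the largest fitted change of the antenna genes at a pseudocount of 1, though not at 0.1 or 5 (log2 fold change 4.26, SE 0.49, adjusted p = 0.00073 by limma). DCAR_005105 had 0.59, 0.09 and 0.08 FPKM in WT and 23.8, 9.14 and 19.4 FPKM in BC. DCAR_029630 had 1.51, 0.52 and 0.08 FPKM in WT and 16.6, 11.2 and 19.9 FPKM in BC. In all 3 genes the groups stood apart, though DCAR_005105 had passed the FPKM minimum only through BC and so had to differ. Their size on this scale depends on the pseudocount: the log2 fold change of DCAR_005105 was 3.81 with a pseudocount of 1, 5.83 with 0.1 and 2.04 with 5, and that of DCAR_029630 was 3.36, 4.79 and 1.86.

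Of the remaining LHCB1 genes called higher, DCAR_003943 rose 8.05-fold, DCAR_007901 5.64-fold and DCAR_027950 3.29-fold in mean FPKM, each without overlap. DCAR_003943 had 22.1, 7.62 and 10.6 FPKM in WT and 124, 115 and 84.5 FPKM in BC. DCAR_027952 had 119.8, 46.9 and 58.2 FPKM in WT and 219.9, 127 and 175 FPKM in BC, so that the highest WT sample came close to the lowest BC sample. Its log2 fold change was 1.29 (SE 0.37, adjusted p = 0.0273 by limma). The call was lost without WT replicate 2 (adjusted p = 0.0697), WT replicate 3 (0.0901), BC replicate 1 (0.0947) or BC replicate 3 (0.0685).

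The only antenna gene called lower was an LHCB1 gene. DCAR_003944 had 5.74, 2.76 and 3.63 FPKM in WT, and 0.1 and 0.27 FPKM in BC replicates 1 and 3, and was listed at 0 in BC replicate 2 (log2 fold change -2.13, SE 0.25, adjusted p = 0.000767 by limma). Having passed the FPKM minimum only through WT, it had to be lower in BC. It remained called with the pseudocounts of 0.1 and 5, at log2 fold changes of -4.35 and -0.81. DCAR_003944 and DCAR_003943 carry a protein accession in common, and RSEM divides shared reads between similar genes. Their sum rose 6.19-fold, from 27.8, 10.4 and 14.2 FPKM in WT to 124, 115 and 84.8 FPKM in BC. The sum was higher in each BC sample than in any WT sample. DCAR_003943 supplied most of it in each sample, so the sum cannot show whether reads were divided between these genes.

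A pair of LHCB1 genes was not called. DCAR_027951 had 28.1, 8.91 and 16.7 FPKM in WT and 21.1, 12.9 and 14.3 FPKM in BC, with all BC values inside the WT range (log2 fold change -0.04, SE 0.39, adjusted p = 0.946 by limma). Its RefSeq gene is next to that of DCAR_027952, which was called higher. DCAR_003940 had 3.7, 5.33 and 4.13 FPKM in WT and 5.98, 4.94 and 6.18 FPKM in BC, with overlap (log2 fold change 0.32, SE 0.17, adjusted p = 0.155). DCAR_003942 matched 2 RefSeq genes, of which 1 is next to the RefSeq gene of DCAR_003943, and both antenna genes were higher.

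LHCB3, which sits in the LHCII trimers bound less tightly to the core, had 1 gene at low levels. The gene, novel1225 (chlorophyll a-b binding protein 13), had 11.6, 10.1 and 8.29 FPKM in WT and 76.8, 55.0 and 68.0 FPKM in BC. The groups did not overlap, and the mean rose 6.67-fold (log2 fold change 2.62, SE 0.17, adjusted p = 5.09e-05 by limma).

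**Figure D2:**
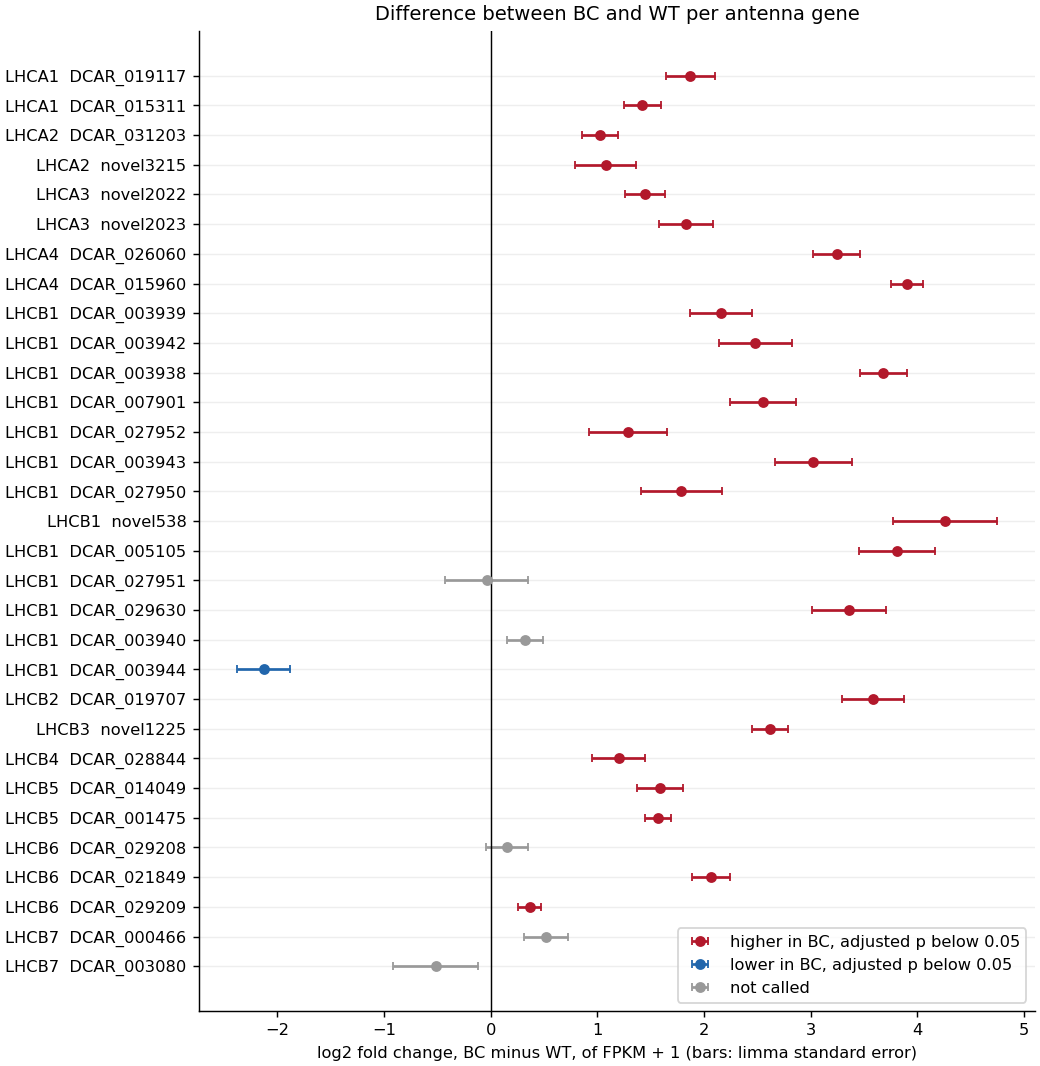
Log2 fold change of FPKM + 1, BC minus WT, for each of the 31 tested antenna genes, with bars of 1 standard error from limma and colours for the call at an adjusted p below 0.05. LHCA4, LHCB2 and several LHCB1 genes lie above 3, while both LHCB7 genes, 2 LHCB1 genes and 1 LHCB6 gene are not called.

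The monomeric antenna types of photosystem II were higher as well. Their summed levels rose 2.25-fold for LHCB4, 2.96-fold for LHCB5 and 1.57-fold for LHCB6, beside 4.86-fold for LHCB1, 11.8-fold for LHCB2 and 6.67-fold for LHCB3. DCAR_028844 (LHCB4, CP29.2) had 578, 309 and 464 FPKM in WT and 1031, 1173 and 832.5 FPKM in BC (log2 fold change 1.20, SE 0.25, adjusted p = 0.00839 by limma). The LHCB5 gene DCAR_001475 (CP26) had 55.2, 41.3 and 44.8 FPKM in WT and 139, 131 and 152 FPKM in BC (log2 fold change 1.57, SE 0.13, adjusted p = 0.000156). The other tested LHCB5 gene, DCAR_014049, had 127, 69.9 and 89.7 FPKM in WT and 312, 267 and 266 FPKM in BC (log2 fold change 1.59, SE 0.21, adjusted p = 0.00139). BC and WT were apart in all 3 genes.

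LHCB6 (CP24) was split. DCAR_021849, CP24 10A-like, had 70.1, 71.0 and 59.1 FPKM in WT and 309, 216 and 335 FPKM in BC (log2 fold change 2.07, SE 0.18, adjusted p = 0.000209 by limma). DCAR_029209, CP24 10A, had 131, 114 and 107 FPKM in WT and 163, 149 and 141 FPKM in BC (log2 fold change 0.36, SE 0.11, adjusted p = 0.0298). DCAR_029208 had 407, 247 and 293 FPKM in WT and 371, 366 and 299.9 FPKM in BC, with overlap, and was not called (log2 fold change 0.16, SE 0.20, adjusted p = 0.55). Thus 1 CP24 gene rose 4.30-fold in mean FPKM and another 1.29-fold. The call of DCAR_029209 was lost with equal FPKM totals (adjusted p = 0.059) and without WT replicate 2 (0.066), WT replicate 3 (0.116), BC replicate 1 (0.103) or BC replicate 2 (0.0706). DCAR_029208 and DCAR_029209 share a protein accession, and their sum overlapped between groups, with 538, 361 and 399.8 FPKM in WT and 534, 515 and 441 FPKM in BC.

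LHCB7, a type described from Arabidopsis as weakly expressed, did not pass the test in either gene. DCAR_000466 had 4.73, 7.34 and 5.7 FPKM in WT and 6.96, 10.8 and 9.07 FPKM in BC (log2 fold change 0.52, SE 0.21, adjusted p = 0.0788 by limma), although it was called higher once WT replicate 2 was left out (adjusted p = 0.0482). DCAR_003080 had 6.21, 2.21 and 6.09 FPKM in WT and 4.84, 2.09 and 2.11 FPKM in BC (log2 fold change -0.52, SE 0.40, adjusted p = 0.329). Both genes carry the same protein accession, and they summed to 10.9, 9.55 and 11.8 FPKM in WT and 11.8, 12.8 and 11.2 FPKM in BC, with overlap.

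The deposited gene models limit some of these values. For 5 antenna genes the annotation joins a chlorophyll-binding protein to another gene, so their FPKM may hold reads of both. DCAR_029208 joins CP24 to a pentatricopeptide repeat protein, DCAR_001475 joins CP26 to FAR1-RELATED SEQUENCE 9, DCAR_014049 is also annotated as a keratin and an RNA helicase, and DCAR_003938 and DCAR_003940 hold receptor kinase domains. Of these 5, 3 were higher and 2 were not called. Without them 22 of 26 tested antenna genes were higher, 1 was lower and 3 were not called, with a median log2 fold change of 1.85. DCAR_003938 had 46.3, 27.6 and 29.6 FPKM in WT and 513, 459 and 371 FPKM in BC (log2 fold change 3.68, SE 0.22, adjusted p = 3.71e-05 by limma). It shares a protein accession with novel538, and their sum rose 13.8-fold without overlap. The sum of DCAR_003939 and DCAR_003940, a further pair with a common accession, rose 4.27-fold without overlap. DCAR_003939 supplied nearly all of that sum.

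The make-up of the antenna transcripts differed between the groups, as a description without a test. LHCB2 made up 12.1%, 10.4% and 12.3% of the summed antenna FPKM in WT and 29.8%, 26.8% and 42.0% in BC. LHCA4 made up 3.16%, 3.06% and 2.88% in WT and 7.35%, 7.83% and 6.97% in BC. LHCB6 took 16.1%, 19.8% and 16.7% in WT and 6.59%, 6.22% and 6.41% in BC. Without the joined gene models described above, LHCB6 took 6.43%, 10.3% and 7.28% in WT and 4.12%, 3.47% and 4.33% in BC. The first 2 types thus held a larger share in each BC sample than in any WT sample, and LHCB6 a smaller one, with and without the joined models. LHCB4 went from 15.5% ± 1.41 to 8.30% ± 1.56, LHCA2 from 10.3% ± 1.65 to 4.92% ± 0.963, LHCA3 from 9.0% ± 0.793 to 5.79% ± 1.08 and LHCB5 from 4.96% ± 0.164 to 3.46% ± 0.0693 (SD, n = 3), again without overlap. Both tested LHCB5 genes are joined models. The shares of LHCB1 and LHCA1 overlapped between groups, although without the joined models that of LHCA1 did not. Because the shares of a sample add up to a whole, the larger LHCB2 share in BC lowers those of the other types. Shares of each type with LHCB2 left out were not worked out. The summed FPKM of LHCB6, LHCB4, LHCA2, LHCA3 and LHCB5 was itself higher in each BC sample than in any WT sample.

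The balance between the photosystems' antennae overlapped between groups. The ratio of summed LHCA to summed LHCB FPKM was 0.360, 0.454 and 0.412 in WT and 0.316, 0.376 and 0.251 in BC. Leaving LHCB2 out, it was 0.431, 0.535 and 0.498 in WT and 0.519, 0.595 and 0.528 in BC. Summed LHCA levels rose 3.51-fold and summed LHCB levels 4.50-fold. With LHCB6 reduced to the genes that are not joined to another, its sum rose 2.38-fold rather than 1.57-fold.

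**Figure D3:**
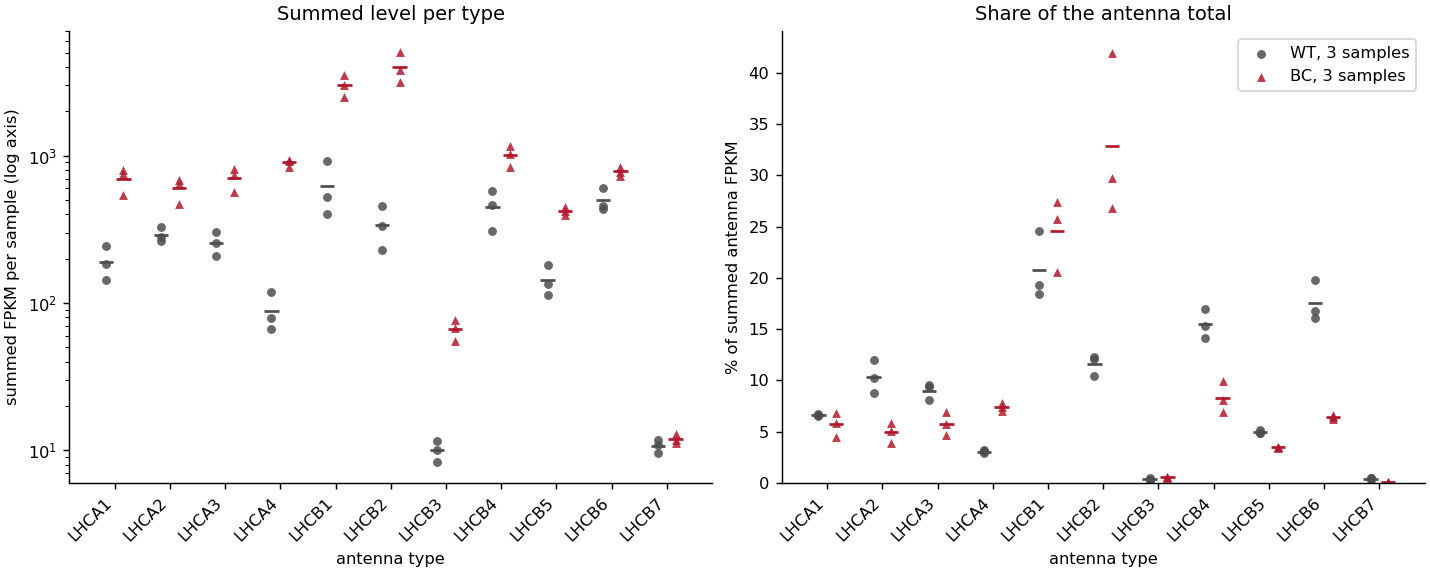
Left, summed FPKM per antenna type in each sample, on a log axis, and right, the share of each type in the summed antenna FPKM; circles are the 3 WT samples, triangles the 3 BC samples and bars the group means. LHCB2 lies between 10.4% and 12.3% in WT and between 26.8% and 42.0% in BC, and LHCB6 lies lower in BC, between 6.22% and 6.59%.

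Antenna genes varied together within the WT group. WT replicate 1 was the highest WT sample for 27 of 31 antenna genes (87.1%), against 32.7% of all tested genes. WT replicate 2 was the lowest for 22 of 31 (71.0%), against 32.3% of all tested genes. The median log2 difference between these samples, replicate 1 minus replicate 2, was 0.76 over the antenna genes and -0.06 over all tested genes. Within BC, replicate 1 was the highest sample for 18 of 31 antenna genes (58.1%, against 22.4% of all tested genes) and replicate 3 the lowest for 17 of 31 (54.8%, against 31.4%). LHCB2 departed from that order, since BC replicate 3 held its highest value. Without WT replicate 1 the median log2 fold change of the antenna genes was 2.06, and without WT replicate 2 it was 1.48.

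Among genes of the photosynthetic machinery outside the antenna (ko00195), 43 of 66 tested genes were higher in BC and 4 were lower, and the median change was 0.80 on the log2 scale. The shares over all tested genes were 22.8% higher and 23.5% lower. Of the 61 photosynthesis genes that had not passed the FPKM minimum through 1 group alone, 40 were higher and 2 lower. The most abundant, DCAR_018450, a small subunit of the photosystem II core (PsbW), had 1432, 1221 and 1274 FPKM in WT and 2785, 2617 and 2039 FPKM in BC (log2 fold change 0.91, SE 0.17, adjusted p = 0.00534 by limma). DCAR_017152, the delta chain of the chloroplast ATP synthase, went from 4.9, 2.07 and 1.91 FPKM to 62.8, 57.8 and 57.0 FPKM, the largest rise in the list. In contrast DCAR_024925, a PsbQ protein of the oxygen-evolving complex that had passed the FPKM minimum only through WT, fell from 13.4, 11.7 and 11.5 FPKM to 0.21 FPKM in BC replicate 3, and was listed at 0 in the other BC samples.

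In porphyrin and chlorophyll metabolism (ko00860) 14 of 55 tested genes were higher and 8 lower, with a median log2 fold change of 0.07. Over all tested genes 22.8% were higher and 23.5% lower, so the higher calls of that list are near the background. Its most abundant gene, DCAR_013513 (magnesium-protoporphyrin IX monomethyl ester cyclase, which builds the fifth ring of chlorophyll), had 343, 193 and 284 FPKM in WT and 284, 301 and 259.8 FPKM in BC, and was not called. In carbon fixation (ko00710) 31 of 72 tested genes were higher and 8 lower, with a median of 0.28. Leaving out 4 genes that had passed the FPKM minimum only through BC, 27 of 68 were higher and 8 lower. The gene with the largest fitted rise, DCAR_010129 (glutamate-glyoxylate aminotransferase of photorespiration), was 1 of those 4 and went from 0.05, 0.05 and 0.02 FPKM to 46.5, 46.7 and 54.8 FPKM. Its largest fall was in DCAR_011894, ribose 5-phosphate isomerase, with a log2 fold change of -1.56.

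The chloroplast FtsY gene and the ALBINO3-like genes, listed for the delivery and insertion of antenna proteins, were not called higher. Of 5 tested assembly genes, 3 were lower, 1 was higher and 1 was not called, beside 23.5% lower and 22.8% higher over all tested genes. DCAR_025148, the chloroplast FtsY receptor of the signal recognition particle that delivers antenna proteins, had 34.2, 35.3 and 34.9 FPKM in WT and 27.0, 26.6 and 27.1 FPKM in BC (log2 fold change -0.36, SE 0.08, adjusted p = 0.00905 by limma). In Arabidopsis ALBINO3 inserts antenna proteins into thylakoids. No gene of the list was named as ALBINO3 itself or as a subunit of the signal recognition particle. An ALBINO3-like 1 gene (DCAR_031174) was lower as well, at a log2 fold change of -0.54, and so was the ALBINO3-like 2 gene (DCAR_003341), at -0.57. The other ALBINO3-like 1 gene, DCAR_007029, had 14.6, 14.1 and 14.6 FPKM in WT and 15.7, 16.5 and 15.5 FPKM in BC, and was not called (log2 fold change 0.13, SE 0.09, adjusted p = 0.299 by limma). The gene that was higher, DCAR_014388, encodes chlorophyllide a oxygenase, which makes the chlorophyll b that antenna proteins bind. It had 31.8, 32.2 and 29.6 FPKM in WT and 81.6, 79.2 and 98.2 FPKM in BC (log2 fold change 1.43, SE 0.11, adjusted p = 0.000104).

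Of 12 tested genes listed for antenna regulation or removal of its chlorophyll, 6 were higher, 1 was lower and 5 were not called. The list reaches beyond the antenna: its higher genes include PROTON GRADIENT REGULATION 5 and a gene described as like it (DCAR_000890). The shares over all tested genes were 22.8% higher and 23.5% lower. DCAR_003551 (PsbS), which triggers the release of excess absorbed light as heat, had 0.32, 0.33 and 0.16 FPKM in WT and 11.7, 7.45 and 15.2 FPKM in BC. DCAR_027339 (PROTON GRADIENT REGULATION 5), which acts in cyclic electron flow, had 0.54 FPKM in WT replicate 2, was listed at 0 in the other WT samples, and had 32.1, 20.4 and 37.7 FPKM in BC. Both genes, like the STAY-GREEN LIKE gene DCAR_031492, had passed the FPKM minimum only through BC and so had to differ. Of the other 9 genes, 3 were higher, 1 was lower and 5 were not called. The violaxanthin de-epoxidase gene DCAR_013654 had 13.6, 15.6 and 15.6 FPKM in WT and 15.3, 14.1 and 17.2 FPKM in BC and was not called. STAY-GREEN proteins start chlorophyll breakdown by taking out its magnesium. The STAY-GREEN gene DCAR_008432 fell from 40.7, 34.2 and 43.2 FPKM to 8.21, 8.61 and 7.44 FPKM. The other STAY-GREEN gene, DCAR_000893, had 39.7, 29.5 and 42.9 FPKM in WT and 57.6, 70.2 and 43.2 FPKM in BC, and was not called (log2 fold change 0.59, SE 0.21, adjusted p = 0.0584 by limma). The STAY-GREEN LIKE gene DCAR_014396 rose by 2.26 on the log2 scale.

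LHC-like stress proteins, relatives of the antenna proteins that appear under strong light, were higher for 3 of 4 tested genes, against 22.8% of all tested genes. The early light-induced protein DCAR_002366 had 0.39, 0.26 and 0.26 FPKM in WT and 5.16, 1.58 and 3.51 FPKM in BC, and having passed the FPKM minimum only through BC it had to differ. The high-light-induced protein DCAR_028759 had 88.4, 60.7 and 62.9 FPKM in WT and 120.4, 114 and 83.0 FPKM in BC (log2 fold change 0.58, SE 0.20, adjusted p = 0.0492 by limma). The levels of DCAR_028759 overlapped between groups. The gene that was not called, DCAR_010078 (stress enhanced protein 2), had a lower mean in BC, also with overlap (log2 fold change -0.59, SE 0.21, adjusted p = 0.0599 by limma).

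Of 6 tested regulators of antenna genes, 2 were higher, 1 was lower and 3 were not called, which is near the background of 22.8% higher and 23.5% lower over all tested genes. DCAR_003095 (HY5), a transcription factor of the light response, had 10.4, 9.89 and 6.81 FPKM in WT and 30.2, 23.6 and 35.6 FPKM in BC (log2 fold change 1.62, SE 0.20, adjusted p = 0.00111 by limma). The clock gene DCAR_006991 (LHY) had 126, 151 and 121 FPKM in WT and 210.2, 191 and 287 FPKM in BC (log2 fold change 0.77, SE 0.17, adjusted p = 0.0109). DCAR_004426, GATA transcription factor 22, was lower, with a log2 fold change of -0.98. DCAR_013033 (GLK1), a regulator of chloroplast development, had 28.2, 10.8 and 15.6 FPKM in WT and 25.2, 27.6 and 17.4 FPKM in BC, with overlap, and was not called (log2 fold change 0.42, SE 0.34, adjusted p = 0.349). In WT its highest and lowest samples were those of most antenna genes.

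**Figure D4:**
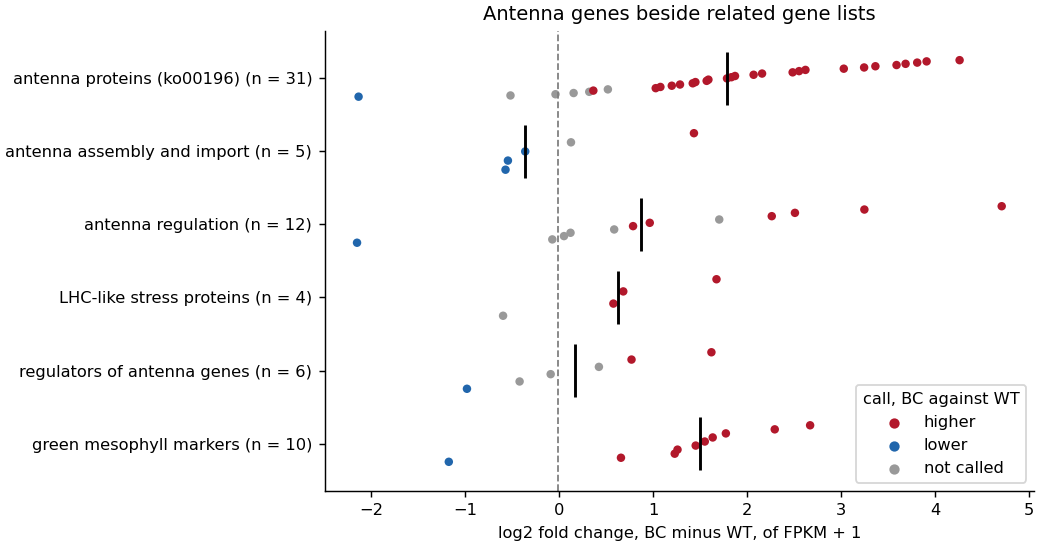
Log2 fold change, BC minus WT, of each tested gene in the antenna set and 5 related lists; colours give the call and vertical bars the median of each list. The median is 1.79 for the antenna genes, 1.5 for green mesophyll markers and -0.36 for antenna assembly and import.

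Markers of several tissues differed between the groups, in both directions, and their part in the antenna result was not tested. The shares over all tested genes were 22.8% higher and 23.5% lower. Of 10 tested green mesophyll markers, 9 were higher and 1 was lower. All 10 were annotated as Rubisco small subunit, Rubisco activase, phosphoribulokinase or glyceraldehyde-3-phosphate dehydrogenase A. They stand for carbon fixation enzymes rather than the cell type, and novel860 and DCAR_030363 were also in the carbon fixation list. Of the 8 that had not passed the FPKM minimum through BC alone, 7 were higher and 1 was lower. The list's summed level was 567 to 705 FPKM in WT and 1983 to 2030.3 FPKM in BC, with none of the 11 listed at 0 throughout. The Rubisco small subunit gene novel860 had 555, 468 and 604 FPKM in WT and 1708, 1645 and 1677 FPKM in BC, whereas the small subunit gene novel2344 was lower (log2 fold change -1.17, SE 0.29). Root periderm markers, which form cork suberin, had 4 of 8 tested genes higher and 1 lower. All 8 were annotated as omega-hydroxypalmitate O-feruloyl transferase or like it, so they stand for 1 enzyme family rather than the tissue. Of the 4 higher genes, 3 (DCAR_016372, DCAR_021643 and DCAR_026998) had passed the FPKM minimum only through BC. Only DCAR_000388 of the 4 was free to be called or not. Periderm markers had summed levels of 50.8 to 66.9 FPKM in WT and 104 to 128 FPKM in BC, and 3 of the 19 listed at 0 in all samples. Phloem markers, mainly phloem protein 2-like genes, had 5 of 10 tested genes lower and none higher, with summed levels of 335 to 1072 FPKM in WT and 64.5 to 134 FPKM in BC. By limma none of the 10 was higher at an unadjusted p below 0.05. The cambium gene WOX4 had 13.4, 10.1 and 5.53 FPKM in WT and 38.7, 20.1 and 52.5 FPKM in BC. No gene matched the xylem marker names. Both tested phytoene synthase genes, which open the carotenoid pathway of the carrot root, were higher, and their list summed to 171 to 224 FPKM in WT and 376 to 454 FPKM in BC.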

How the data were processed

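Libraries of mRNA were primed with random hexamers, amplified by PCR and made circular, according to the labels' protocols. FPKM values for 6 samples, with 2 decimals, were deposited by the authors; RSEM is named without a version in the submitters' processing notes. The aligner, genome build and annotation were not given in the sources used here. Sequencing depth is unknown, so no counting error is given; FPKM totals were 1141946 to 1287459 per sample, with 24137 to 25274 genes above 0.

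Genes that reached 1 FPKM in 3 or more samples were compared on the log2(FPKM + 1) scale by limma 3.58.1, under R 4.3.3 (eBayes with a trend, Benjamini-Hochberg over 21033 genes, called at an adjusted p below 0.05), BC against WT, without a covariate. The scale understates changes of low genes. A permutation test of 3 against 3 samples cannot go below p = 0.1, so none was used. Types are KEGG names in the deposited table. RefSeq (assembly DH1 v3.0) gave neighbouring genes for the 23 matched members. Every member was accounted for; from the other lists the most abundant gene and the called genes at both ends of the fold changes were to be named, and further genes were named after their values were seen. The members and lists were chosen with earlier results of these data known; the word searches behind the lists were narrowed, and the joined gene models were picked, after the annotation was seen. The BC against WT fit was tested on simulated data with 50 changed genes of each size among 21033. It recovered 12% of genes at a log2 change of 0.5, 50% at 1, 82% at 2 and 96% at 3. It made 4 false calls in 20833 unchanged genes. The simulation held far fewer changed genes than the 46.4% called in the real data, and its genes varied independently. These rates therefore do not carry over to the real comparison. Alternatives were other pseudocounts, filters, scalings and variance models, the replicate block and leaving out each sample.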

Additional observations from a re-analysis of the deposited data

How the results depend on the processing

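Under 16 other settings, 23 of the 26 called antenna genes kept their call wherever they were tested; novel3215, DCAR_027952 and DCAR_029209 did not, and no direction reversed. Antenna genes called higher numbered 22 to 24 with 1 sample left out, against 25. Those at least 2-fold higher numbered 21 to 23, and the median log2 fold change was 1.48 to 2.06. The count of lower antenna genes was 1 with any sample left out. It was 0 at a minimum of 5 FPKM, where DCAR_003944 was not tested and none of the 27 antenna genes was lower by limma at an unadjusted p below 0.05. It was also 0 without genes that passed the minimum through 1 group, an alternative chosen after seeing the data. Over all tested genes, 3193 to 5203 were lower and 3446 to 4873 higher with 1 sample left out, both lowest without WT replicate 3. Photosynthesis genes called higher numbered 35 to 41, and lower 3 to 4; without genes that passed the minimum through 1 group, likewise chosen after seeing the data, 2 photosynthesis genes were lower. Equal FPKM totals moved the median of all genes from -0.02 to -0.11 and that of the antenna genes to 1.69. With the replicate block, 26 antenna genes were higher and 1 was lower. DCAR_000466 was added to the higher genes (adjusted p = 0.0411 by limma). In all 7953 genes were called, against 9749. Over all tested genes, deviations of same-numbered samples from their group means correlated at 0.196, -0.356 and -0.195. The labels state no pairing, and these correlations cannot show whether the samples were paired. Unknown depth limits the reading of genes near 1 FPKM.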
